A study of Mus musculus with 93 samples.

Results

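The 10 genes described here set the hormone that controls iron, sense iron, or carry, export or store it in mouse liver: Hamp, Hamp2, Bmp6, Hfe, Tfr2, Trf, Tfrc, Slc40a1, Fth1 and Ftl1. They were chosen by name, as the rows of the count table whose Ensembl identifier carries one of these symbols, and are 10 of 53465 gene rows. RNA was sequenced from the livers of 93 male mice of 7 inbred strains, none with an engineered allele in its labels: C57BL/6J, DBA/2J, A/J and 129S1/SvImJ, which are laboratory strains, and WSB/EiJ, CAST/EiJ and PWK/PhJ, which derive from wild mice. All mice lived at 30 °C, which is thermoneutral for a mouse, once they were 6 weeks old. From 7 weeks they ate either a Western diet with 40% of its energy from fat (WD) or a control diet with 10% (CD). The groups held 8 CD and 8 WD mice of C57BL/6J, 6 and 7 of DBA/2J, 5 and 6 of A/J, 7 and 6 of 129S1/SvImJ, 6 and 6 of WSB/EiJ, 7 and 8 of CAST/EiJ, and 6 and 7 of PWK/PhJ. Each strain is 1 inbred genotype, so a difference between strains is a difference between these genotypes only.

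The comparisons ask what WD did to these genes within a strain, whether that differed between strains, and how the strains differed on CD. Each mouse had 40020424 to 49894856 reads counted on genes, and all 10 genes passed the filter on low counts, with 19110 genes tested in all. Levels are given as CPM, read counts scaled to a common library size, and levels of different genes are compared only as CPM per kb of exon. The liver label was met by 6 hepatocyte markers such as albumin (Alb), whose summed level on CD was 103931 to 197915 CPM by strain. WD moved cell markers too: 2 to 5 of the 6 hepatocyte markers were lower in each strain, and all 7 macrophage markers were higher in C57BL/6J (summed 189.7 to 308 CPM), 129S1/SvImJ (60.2 to 199.9 CPM) and PWK/PhJ (25.7 to 151 CPM). In whole liver, fewer cells of a type and less RNA per cell cannot be told apart.

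Hepcidin is a small peptide hormone that hepatocytes secrete. It binds ferroportin, the known exporter of iron from cells, encoded by Slc40a1, and has it removed from the membrane, so that less iron enters the blood from the gut and from macrophages. Hepatocytes make more hepcidin when sinusoidal endothelial cells release BMP6, which signals through SMAD proteins, when iron-loaded transferrin is sensed with the help of HFE and transferrin receptor 2 (Tfr2), and, through STAT3, in inflammation. Mice carry a pair of hepcidin genes: Hamp encodes the iron-regulating hormone, and the role of its neighbour Hamp2 is less clear. Iron regulatory proteins bind stem-loops in messenger RNAs, called iron-responsive elements (IREs), which restrain translation of ferritin and ferroportin and stabilise the message of transferrin receptor 1 (Tfrc) when iron is scarce.

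Both hepcidin genes lie on chromosome 7 on the minus strand (GRCm38). Hamp (ENSMUSG00000050440) spans chr7:30942368-30944032 and Hamp2 (ENSMUSG00000056978) chr7:30922372-30924681. Their coding parts, of 249 and 252 bases, were identical at 93.6% of 249 aligned bases, and the longest run that their transcripts shared was 87 bases. The 300-base promoter windows in RefSeq (250 bases before to 50 after the start site, GRCm38.p6) were identical at 92.9% of 297 aligned bases. The first 240 bases of each window are shown. WD lowered both genes in the same strains, while the levels of the pair differed widely. The part of these sequences in the diet effects or in the levels was not tested. Both windows are from the reference genome, and promoter sequences were not compared between strains. Capitals mark GGCGCC in Hamp, a BMP-response element, with the bases aligned to it in Hamp2, and a match of each gene to TTCNNNGAA, the pattern that STAT3 binds.
Hamp, chr7:30944040-30944279, minus strand: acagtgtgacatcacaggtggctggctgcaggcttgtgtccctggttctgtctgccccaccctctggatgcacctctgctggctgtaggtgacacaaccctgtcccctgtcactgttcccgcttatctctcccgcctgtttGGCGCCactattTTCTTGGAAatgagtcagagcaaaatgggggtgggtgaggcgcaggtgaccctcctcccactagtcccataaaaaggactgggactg
Hamp2, chr7:30924192-30924431, minus strand: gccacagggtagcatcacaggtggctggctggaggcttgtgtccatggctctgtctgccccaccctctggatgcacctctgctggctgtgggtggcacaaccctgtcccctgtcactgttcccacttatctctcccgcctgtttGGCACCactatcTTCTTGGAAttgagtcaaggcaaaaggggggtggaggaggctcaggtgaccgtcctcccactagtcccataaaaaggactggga
In the GGCGCC site, whose first base lies 109 bases before the Hamp start site, Hamp2 differs by G4A (the Hamp base, the position from 1 at the first base of the site, the Hamp2 base). Both patterns read the same on either strand, so 1 search covered both, and they do not overlap each other here. GGCGCC was found in 11.9% of all 32851 promoter windows of this length and TTCNNNGAA in 8.30%. Of the 8 members with a window in the table, Hamp and Tfrc held GGCGCC, and Hamp and Hamp2 held TTCNNNGAA.

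Stem-loops of the IRE kind were searched for in GENCODE M21 transcripts (GRCm38) as a C, 5 bases, the loop CAGTGN and 5 bases that pair with the first 5 (G-T pairs allowed), with at least 4 of 5 pairs below the C. The pattern was found in 30 of 21901 protein-coding genes, or 0.137%, and in 4 of the 10 members. Tfrc held 4 matches in its 3′ UTR, and Slc40a1, Fth1 and Ftl1 held 1 each in the 5′ UTR. A site of each gene is shown with the loop in capitals, since these sites set the 4 messages apart from the other 6.
Tfrc 3′ UTR, chr16:32631220-32631246, plus strand: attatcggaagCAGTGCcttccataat
Slc40a1 5′ UTR, chr1:45925466-45925492, minus strand: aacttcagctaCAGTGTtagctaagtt
Fth1 5′ UTR, chr19:9982733-9982759, plus strand: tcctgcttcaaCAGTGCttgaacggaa
Ftl1 5′ UTR, chr7:45459780-45459806, minus strand: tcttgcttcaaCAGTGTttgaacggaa
A match of letters is a description of the transcript and not a measurement of binding.

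WD lowered Hamp in 4 strains and Hamp2 in the same 4, lowered Bmp6 in 4, raised Hfe in 4 and Fth1 in 3, and gave no call on Trf or Slc40a1. A call is a Benjamini–Hochberg adjusted p below 0.05 in limma-voom. In C57BL/6J 5 of the 10 members were called (2 higher and 3 lower on WD), where 26.2% of all genes were called. In DBA/2J 7 were called (4 higher, 3 lower), against 18.0% of all genes. This count fell to between 4 and 6 without any 1 of the 13 DBA/2J mice. It was 4 without DBA/2J CD mouse 1, and CD mouse 4 also moved it by more than 1.5 times. In 129S1/SvImJ 7 were called (4 higher, 3 lower), against 28.0%, and in WSB/EiJ 2 (1 higher, 1 lower), against 8.94%. PWK/PhJ had 4, all lower on WD, against 29.6%.

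A/J and CAST/EiJ had no member called, against 9.03% and 19.5% of all genes. In A/J, Hfe, Slc40a1, Fth1 and Ftl1 had an unadjusted limma-voom p below 0.05, all 4 with higher values on WD, edgeR's quasi-likelihood test called 0 and DESeq2 called 1, which was Fth1. Without A/J CD mouse 3, WD mouse 3 or WD mouse 5, limma-voom also called 1. In CAST/EiJ, Hamp, Bmp6, Hfe and Fth1, 4 in all, had an unadjusted p below 0.05, and edgeR and DESeq2 each called 2, Hamp and Hamp2. Up to 3 members were called there when CD mouse 1, 2, 4 or 5 or WD mouse 6 was left out. The median log2 change of the 10 members lay between -0.18 in PWK/PhJ and 0.11 in DBA/2J, and that of all genes tested between -0.01 and 0.02.

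**Figure D1:**
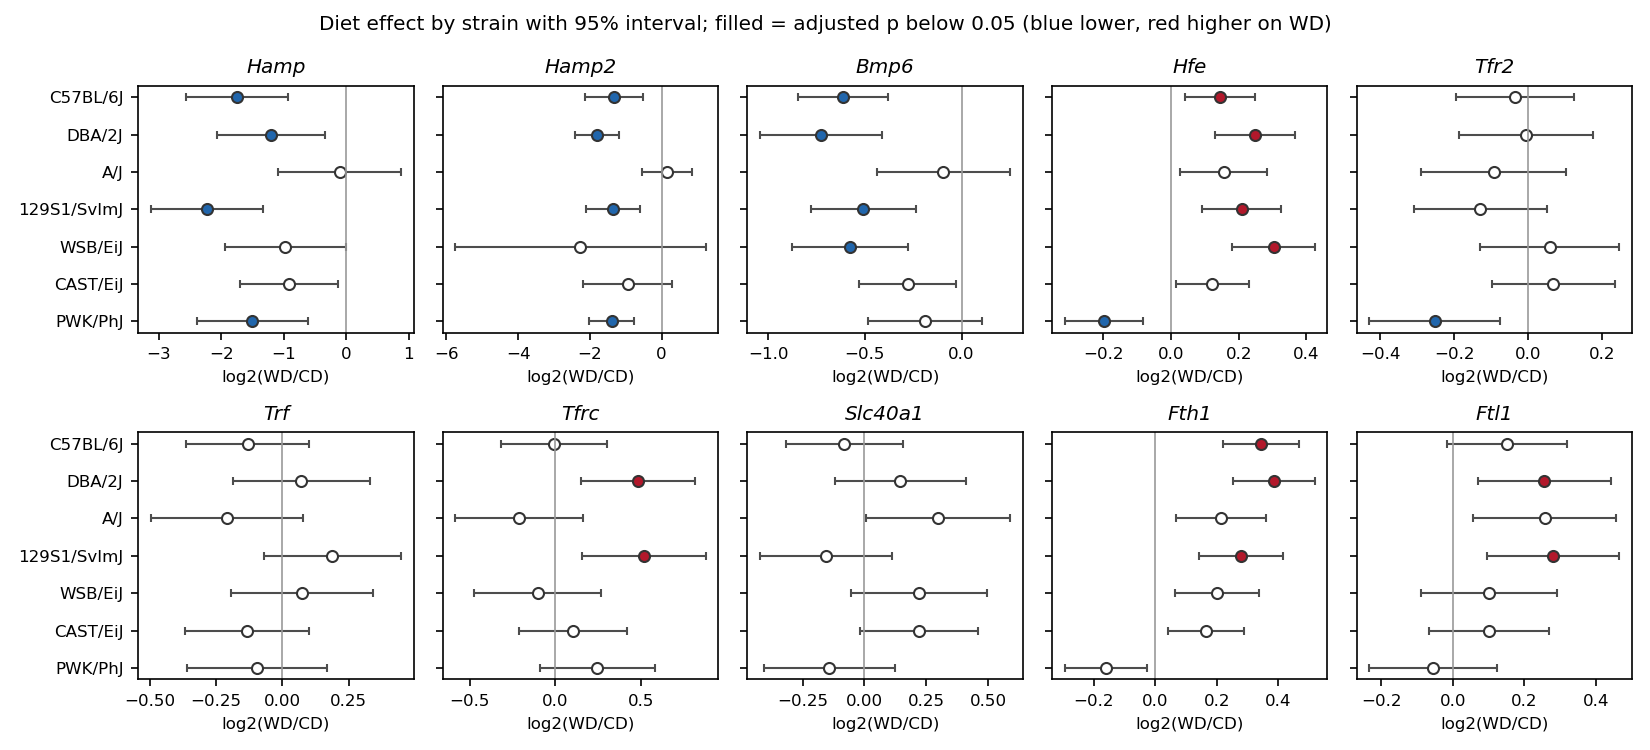
Log2 ratio of WD to CD for each member (panels) in each of the 7 strains, from limma-voom, with 95% intervals; filled points passed an adjusted p of 0.05. Hamp and Hamp2 were called lower in 4 strains each, and Hfe and Fth1 lie on the higher side of 0 in 6 strains and on the lower side in PWK/PhJ.

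Hamp fell most, by the fitted value, in 129S1/SvImJ. There the 7 CD mice ranged over 519.9 to 804 CPM around a median of 615 CPM, and the 6 WD mice over 45.6 to 242 CPM around 169 CPM, so the diets did not overlap. The fitted change was -2.23 on the log2 scale (SE 0.45, limma-voom adjusted p = 7.35e-05), a WD level of 0.213 times the CD level. In C57BL/6J the mice were more scattered. CD mice had 259 to 1321 CPM with a median of 724 CPM, and WD mice 57.05 to 833 CPM with a median of 213 CPM. The C57BL/6J change was -1.75 (SE 0.41, adjusted p = 0.000634), and 4 of 8 WD mice lay below every CD mouse.

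PWK/PhJ and DBA/2J made less Hamp than these strains on CD by their means, and WD lowered it in both. On CD, DBA/2J differed from C57BL/6J and 129S1/SvImJ (limma-voom adjusted p = 0.0024 and 0.0036), and PWK/PhJ did not (limma-voom adjusted p = 0.26 and 0.3). In PWK/PhJ, Hamp was 206 to 689 CPM on CD (median 467 CPM) and 67.5 to 335 CPM on WD (median 196 CPM), a change of -1.50 (SE 0.45, adjusted p = 0.00671), with 4 of 7 WD mice below every CD mouse. In DBA/2J it was 151 to 313 CPM on CD (median 229 CPM) and 68.2 to 160.1 CPM on WD (median 95.5 CPM), and 6 of 7 WD mice lay below every CD mouse. The DBA/2J change of -1.19 (SE 0.43) passed narrowly, at an adjusted p of 0.0431. It lost the call without any 1 of 9 of the 13 mice (CD mice 1, 4, 5 and 6 and WD mice 1, 2, 3, 4 and 7), with changes of -1.31 to -1.10, and with cohort, a number the labels give each mouse, as a covariate (adjusted p = 0.0517).

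The other 3 strains gave no call. In WSB/EiJ, Hamp was 630.2 to 1236 CPM on CD (median 962 CPM) and 232 to 769.6 CPM on WD (median 498 CPM). There 5 of 6 WD mice lay below every CD mouse, and the change was -0.97 (95% interval -1.93 to -0.01, adjusted p = 0.228). CAST/EiJ had the lowest levels, 15.5 to 232 CPM on CD (median 98.6 CPM) and 21.8 to 88.2 CPM on WD (median 45.4 CPM), with wide overlap. Its change of -0.92 had an adjusted p of 0.0918 in limma-voom and 0.0289 in edgeR's quasi-likelihood test, and it became a limma-voom call, at -1.31 on the log2 scale at the lowest, without CAST/EiJ CD mice 2 and 5, each left out in turn. In A/J the 5 CD mice had 386, 335, 395, 249 and 442 CPM, and the 6 WD mice 203 to 622 CPM with a median of 302 CPM, a range that surrounds the CD mice. The A/J change was -0.10, with an interval of -1.08 to 0.88.

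The test of whether the 7 diet effects differ gave an adjusted p of 0.115 for Hamp, which fell below 0.05 without C57BL/6J WD mouse 3. It passed for 3 of the 10 members (Bmp6, Hfe and Fth1), against 37.5% of all genes. Within the 15 combinations of strain and cohort, Hamp was lower on WD in 14, Hamp2 in 14 and Bmp6 in 14, while Hfe, Fth1 and Ftl1 were each higher in 13, Tfrc and Slc40a1 in 9, Tfr2 in 7 and Trf in 5. Some combinations held few mice, such as 1 CD mouse in CAST/EiJ cohort 1 and 2 mice on each diet in WSB/EiJ cohort 7. These directions are a description, given without a count over all genes.

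**Figure D2:**
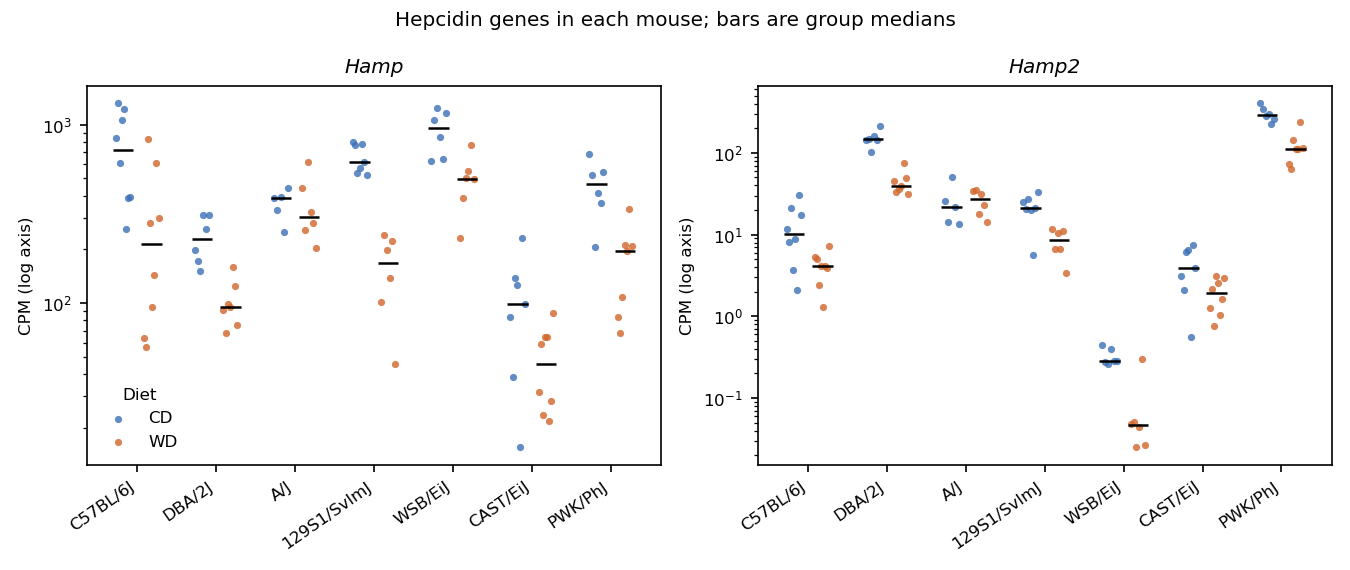
Hamp and Hamp2 in CPM on log axes, 1 point per mouse by strain and diet, with bars at group medians. Hamp on CD is lowest in CAST/EiJ (median 98.6 CPM), while Hamp2 on CD runs from a median of 0.283 CPM in WSB/EiJ to 287 CPM in PWK/PhJ.

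Hamp2 fell in the strains where Hamp did, and among these 4 most in DBA/2J. There CD mice had 103 to 212 CPM (median 147 CPM) and WD mice 31.7 to 75.0 CPM (median 39.2 CPM), with no overlap and a change of -1.81 (SE 0.31, adjusted p = 4.98e-06). PWK/PhJ, the strain with most Hamp2, had 228 to 405 CPM on CD (median 287 CPM) and 63.1 to 239 CPM on WD (median 111 CPM), and 6 of 7 WD mice lay below every CD mouse (-1.39, SE 0.31, adjusted p = 0.000302). In 129S1/SvImJ it was 5.68 to 33.0 CPM on CD (median 21.1 CPM) and 3.38 to 11.8 CPM on WD (median 8.54 CPM), a change of -1.34 (adjusted p = 0.00435). Ranges overlapped there and in C57BL/6J. The C57BL/6J mice had 2.12 to 30.4 CPM on CD (median 10.3 CPM) and 1.32 to 7.34 CPM on WD (median 4.13 CPM; -1.33, adjusted p = 0.00963).

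In A/J the 5 CD mice had 25.4, 14.3, 50.8, 21.6 and 13.3 CPM of Hamp2 and the WD mice 14.3 to 35.5 CPM (median 27.1 CPM), a change of 0.15 with an interval of -0.55 to 0.84. CAST/EiJ mice had 0.566 to 7.54 CPM on CD and 0.753 to 3.10 CPM on WD (-0.95, adjusted p = 0.313 in limma-voom and 0.0254 in edgeR's quasi-likelihood test). WSB/EiJ mice had only 10 to 17 reads on Hamp2 on CD and 1 to 13 on WD, so that no fold change is given for them; limma-voom made no call there (adjusted p = 0.502) and DESeq2 did (0.00750). The 7 diet effects on Hamp2 gave an adjusted p of 0.0719 for a difference, which passed without any 1 of 5 mice: C57BL/6J CD mouse 4 or 6, A/J CD mouse 3 or WD mouse 6, or 129S1/SvImJ CD mouse 5.

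The part that Hamp2 made up of the pair ranged widely between strains. As CPM per kb of exon, Hamp2 was 31.8% ± 4.11 (SD, n = 6) of the summed level of Hamp and Hamp2 in DBA/2J on CD and 33.2% ± 8.16 (SD, n = 6) in PWK/PhJ. For A/J it was 4.69% ± 2.45 (SD, n = 5), for CAST/EiJ 2.88% ± 0.537 (SD, n = 7), for 129S1/SvImJ 2.43% ± 1.19 (SD, n = 7), for C57BL/6J 1.68% ± 1.76 (SD, n = 8) and for WSB/EiJ 0.0273% ± 0.0132 (SD, n = 6). DBA/2J and PWK/PhJ thus stood apart from the other 5. On WD the share was 23.3% ± 2.07 (SD, n = 7) in DBA/2J, where CD mice had 26.6 to 37.97% and WD mice 20.3 to 25.8% without overlap, and 34.8% ± 7.88 (SD, n = 7) in PWK/PhJ, where they overlapped. All reads were mapped to the C57BL/6J genome, and how far sequence differences between the strains move reads from one copy to the other was not tested. An antisense lincRNA, Gm44662, covers 89 bases of Hamp2 exons, and reads there cannot be assigned without strand. With reads of both copies summed as 1 gene, the change was -1.41 for DBA/2J, -2.19 for 129S1/SvImJ, -1.74 for C57BL/6J and -1.46 for PWK/PhJ, all 4 still called, and the other 3 strains were still not called.

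On CD the strains differed in all 10 members by the F test, at limma-voom adjusted p-values from 4.84e-34 for Hamp2 to 5.13e-05 for Tfrc, against 93.7% of all genes. Of the 21 pairs of strains, 20 differed in Hamp2, 14 in Tfr2 and Trf each, 12 each in Bmp6, Hfe and Ftl1, 10 each in Hamp and Slc40a1, 9 in Fth1 and 7 in Tfrc, against 48.3% of the pairs over all genes. In order of fitted Hamp on CD, WSB/EiJ stood first (934 ± 263 CPM, n = 6), then C57BL/6J (762 ± 410.2 CPM, n = 8), 129S1/SvImJ (656 ± 123 CPM, n = 7), PWK/PhJ (456 ± 166 CPM, n = 6), A/J (361 ± 73.4 CPM, n = 5), DBA/2J (234 ± 70.4 CPM, n = 6) and CAST/EiJ (105 ± 71.5 CPM, n = 7). Among neighbours in this order, DBA/2J and CAST/EiJ differed (2.83-fold, adjusted p = 0.0025) and the others did not pass. For Hamp2 the order was PWK/PhJ, DBA/2J, A/J, 129S1/SvImJ, C57BL/6J, CAST/EiJ and WSB/EiJ. Every pair of neighbours differed except A/J and 129S1/SvImJ (adjusted p = 0.7), and the step from DBA/2J to A/J was 6.69-fold, adjusted p = 1.00e-10. The share of reads that did not map was 1.66 to 14.8% per mouse, with the highest group means in CAST/EiJ, which also had the least Hamp, Trf and Slc40a1 on CD. By diet, the group mean of this share rose most in PWK/PhJ (3.50% on CD, 7.88% on WD) and WSB/EiJ (4.52% and 7.42%). It fell in DBA/2J (6.45% and 4.77%) and A/J (2.25% and 2.11%). The part of unmapped reads in these orders and in the diet effects was not tested.

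Bmp6 (ENSMUSG00000039004, chr13:38345107-38500302, plus strand), the endothelial signal that raises hepcidin, was a low transcript that fell on WD in C57BL/6J, DBA/2J, 129S1/SvImJ and WSB/EiJ. In DBA/2J the CD mice had 4.19 to 5.80 CPM (median 5.21 CPM) and the WD mice 2.48 to 3.83 CPM (median 2.94 CPM), with no overlap (-0.73, SE 0.16, adjusted p = 0.000388). C57BL/6J had 5.45 to 10.3 CPM on CD (median 7.44 CPM) and 3.31 to 6.50 CPM on WD (median 4.94 CPM), a change of -0.61 (SE 0.12, adjusted p = 2.63e-05). Changes were of like size in WSB/EiJ (-0.58, adjusted p = 0.00641) and 129S1/SvImJ (-0.51, adjusted p = 0.00289). No call was made in A/J (3.21 to 4.54 CPM on CD and 3.44 to 3.97 CPM on WD; -0.09, interval -0.44 to 0.25) or PWK/PhJ (-0.19, interval -0.49 to 0.11). CAST/EiJ (-0.28, adjusted p = 0.107) was called only without CAST/EiJ CD mice 2 and 4, each left out in turn.

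The diet effects on Bmp6 differed between strains at an adjusted p of 0.0479, which rose above 0.05 in 57 of the 93 fits that each left out 1 mouse, up to 0.0792, and was 0.0587 with edgeR. In DBA/2J, 4 of the 7 sinusoidal endothelial markers fell too, their sum going from 318 to 259 CPM. Called endothelial markers were fewer elsewhere: 1 higher and 2 lower in C57BL/6J (351 to 349 CPM), 1 higher in 129S1/SvImJ (373 to 374 CPM) and 1 lower in WSB/EiJ (394 to 365 CPM). Their part in the fall of Bmp6 was not tested. On CD, Bmp6 was highest in CAST/EiJ (7.94 ± 1.86 CPM, n = 7) and lowest in A/J (3.97 ± 0.574 CPM, n = 5), and the neighbours in the order that differed were 129S1/SvImJ and DBA/2J (1.36-fold, adjusted p = 0.0049). The antisense neighbour Txndc5 covers 5.74% of Bmp6 exons.

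Hfe (ENSMUSG00000006611, chr13:23702034-23710854, minus strand) encodes a membrane protein that takes part in sensing transferrin iron. It rose by 0.30 in WSB/EiJ (SE 0.06, adjusted p = 0.000249), where CD mice had 28.6 to 32.5 CPM (median 30.9 CPM) and WD mice 35.8 to 40.5 CPM (median 37.0 CPM) without overlap. Smaller rises passed in DBA/2J (0.25, adjusted p = 0.00121), 129S1/SvImJ (0.21, adjusted p = 0.00444) and C57BL/6J (0.14, adjusted p = 0.0285). The C57BL/6J call was lost, at adjusted p-values of up to 0.0687, without any 1 of 5 mice (CD mice 3 and 5 and WD mice 1, 2 and 4). A/J (0.16, adjusted p = 0.12) and CAST/EiJ (0.12, adjusted p = 0.106) gave no call, the latter except without CAST/EiJ CD mouse 4. PWK/PhJ went the other way, from 35.1 to 40.3 CPM on CD (median 36.9 CPM) to 29.7 to 34.6 CPM on WD (median 32.9 CPM), again without overlap (-0.20, SE 0.06, adjusted p = 0.00545). The diet effects differed between strains (adjusted p = 3.78e-05), and that of PWK/PhJ differed from the mean of the other 6 (-0.40, SE 0.06, adjusted p = 2.70e-06). On CD the order was C57BL/6J, PWK/PhJ, CAST/EiJ, WSB/EiJ, A/J, DBA/2J and 129S1/SvImJ, from 39.5 ± 2.13 CPM, n = 8 to 28.0 ± 2.57 CPM, n = 7, with a step between CAST/EiJ and WSB/EiJ (1.20-fold, adjusted p = 0.0001) and no other neighbours that differed.

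Tfr2 (ENSMUSG00000029716, chr5:137569840-137587481, plus strand), the transferrin receptor of hepatocytes that takes part in sensing iron, was called in PWK/PhJ and in no other strain. There CD mice had 233 to 305 CPM (median 276 CPM) and WD mice 198 to 271 CPM (median 224 CPM), a change of -0.25 (SE 0.09, adjusted p = 0.0226), with 5 of 7 WD mice below every CD mouse. The call was lost, at adjusted p-values of up to 0.0700, without PWK/PhJ CD mice 2, 5 and 6 and WD mouse 2, each left out in turn. Hepatocyte markers were lower in PWK/PhJ too, 4 of 6, their sum going from 122056 to 78621 CPM, and their part in the fall of Tfr2 was not tested. The diet effects did not pass the test of a difference between strains (adjusted p = 0.239). On CD, Tfr2 ran from 272 ± 26.4 CPM, n = 6, in PWK/PhJ to 467 ± 52.3 CPM, n = 6, in WSB/EiJ, and of the neighbours CAST/EiJ and C57BL/6J differed (1.18-fold, adjusted p = 0.012).

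**Figure D3:**
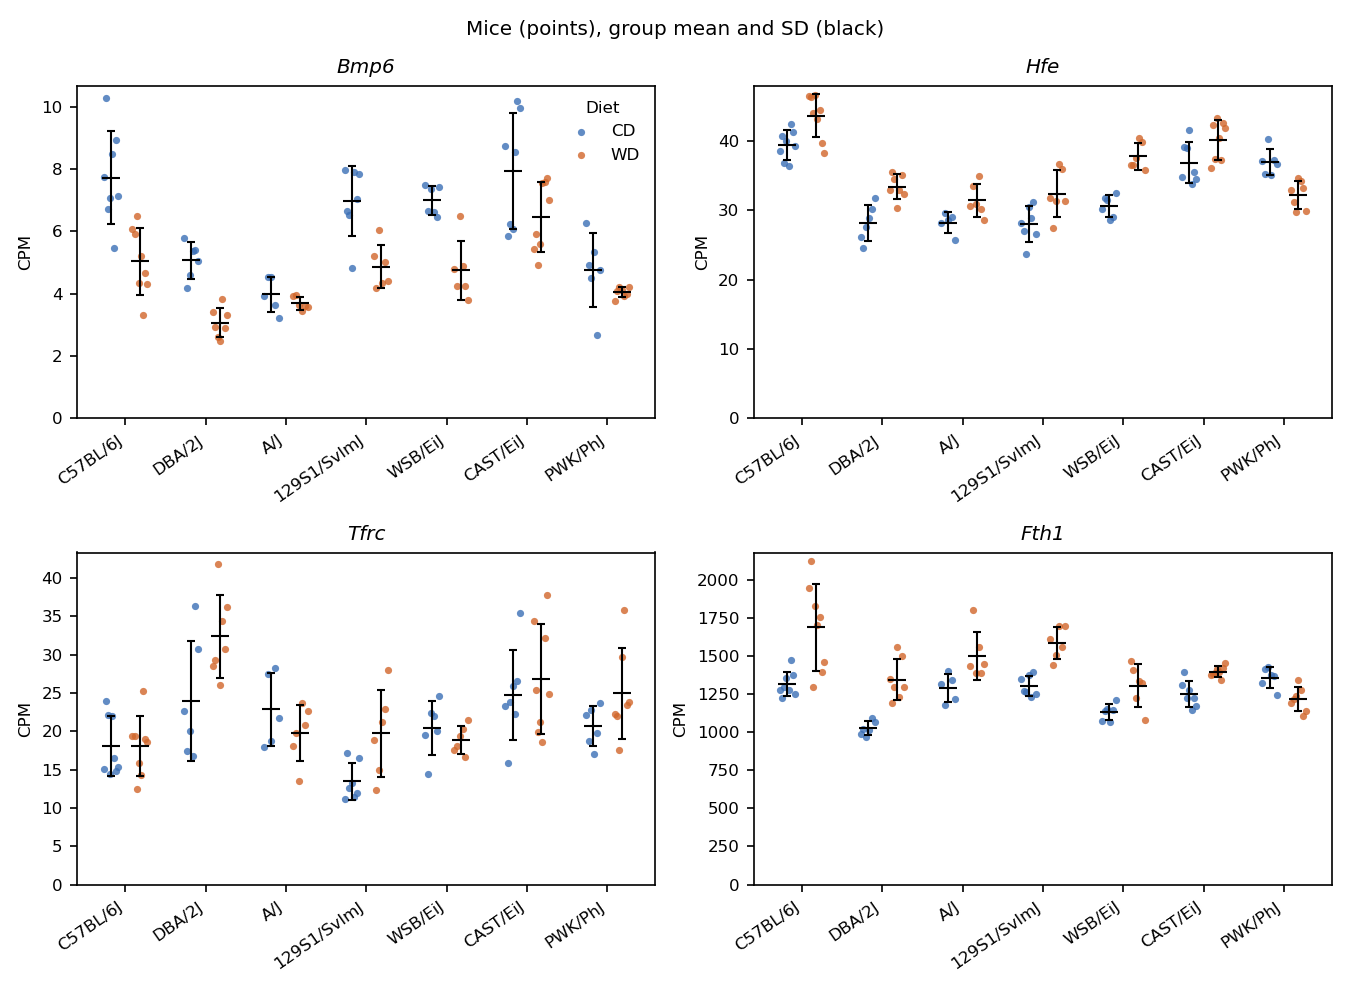
Bmp6, Hfe, Tfrc and Fth1 in CPM by strain and diet, 1 point per mouse, with the group mean and SD. By their means Hfe and Fth1 are higher on WD in 6 strains and lower in PWK/PhJ (Hfe 37.0 to 32.2 CPM, Fth1 1358 to 1217 CPM).

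Trf (ENSMUSG00000032554, chr9:103204001-103230444, minus strand) encodes transferrin, the plasma carrier of iron, and was not called in any strain, with changes from -0.21 in A/J (interval -0.50 to 0.08) to 0.19 in 129S1/SvImJ (interval -0.07 to 0.45). Its level on CD ran from 231 ± 41.6 CPM, n = 7, in CAST/EiJ to 467 ± 96.3 CPM, n = 6, in PWK/PhJ, and A/J and WSB/EiJ (1.31-fold, adjusted p = 0.018) and 129S1/SvImJ and CAST/EiJ (1.24-fold, adjusted p = 0.03) were the neighbours that differed. Another annotated gene on the same strand, Gm20425, covers 63.5% of Trf exons, and reads that fall on both genes are ambiguous, so the level of Trf is uncertain in size.

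Tfrc (ENSMUSG00000022797, chr16:32608920-32632794, plus strand), the receptor that brings transferrin iron into cells, rose in 129S1/SvImJ and DBA/2J. In 129S1/SvImJ CD mice had 11.2 to 17.2 CPM (median 12.6 CPM) and WD mice 12.4 to 28.1 CPM (median 20.1 CPM), and 4 of 6 WD mice lay above every CD mouse (0.52, SE 0.18, adjusted p = 0.024). In DBA/2J CD mice had 16.8 to 36.3 CPM (median 21.3 CPM) and WD mice 25.99 to 41.8 CPM (median 30.7 CPM), which overlapped widely (0.48, SE 0.17, adjusted p = 0.0321). Both calls changed with single mice. The first was lost without 129S1/SvImJ WD mice 4, 5 and 6, each left out in turn (adjusted p up to 0.103). The call in DBA/2J was lost without any 1 of 7 mice (CD mice 1, 2, 3 and 4 and WD mice 3, 5 and 7; adjusted p up to 0.117) and with edgeR (adjusted p = 0.0661). The other changes ran from -0.21 in A/J to 0.24 in PWK/PhJ, and the test of a difference between strains gave an adjusted p of 0.0646 in limma-voom and 0.0408 in DESeq2; leaving out any 1 of 7 mice (C57BL/6J WD mouse 6, CAST/EiJ CD mouse 2, 129S1/SvImJ WD mice 2 and 3, DBA/2J CD mice 5 and 6, WSB/EiJ CD mouse 2) also took it below 0.05. On CD, 129S1/SvImJ was lowest (13.5 ± 2.43 CPM, n = 7) and differed from its neighbour C57BL/6J (18.0 ± 3.93 CPM, n = 8; 1.33-fold, adjusted p = 0.037).

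Slc40a1 (ENSMUSG00000025993, chr1:45908068-45926523, minus strand), ferroportin, was not called in any strain. In A/J, where its fitted change was highest, the 5 CD mice had 157, 174, 234, 209 and 204 CPM and the WD mice 189.7 to 272 CPM with a median of 253 CPM (0.30, interval 0.01 to 0.59, adjusted p = 0.2). The diet effects gave an adjusted p of 0.123 for a difference between strains, which fell below 0.05 without PWK/PhJ CD mouse 5 or WSB/EiJ CD mouse 6. On CD it was lowest in CAST/EiJ (104 ± 17.7 CPM, n = 7), below C57BL/6J (143 ± 22.1 CPM, n = 8; 1.38-fold, adjusted p = 0.00084), and highest in 129S1/SvImJ (210.2 ± 24.2 CPM, n = 7), with no other neighbours that differed.

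Fth1 (ENSMUSG00000024661, chr19:9980598-9985098, plus strand) and Ftl1 (ENSMUSG00000050708, chr7:45457944-45459884, minus strand) encode the heavy and light chains of ferritin, the iron storage shell. Fth1 rose in C57BL/6J, DBA/2J and 129S1/SvImJ. In DBA/2J it was 971 to 1095 CPM on CD (median 1017 CPM) and 1193 to 1557 CPM on WD (median 1299 CPM), without overlap (0.39, SE 0.07, adjusted p = 7.74e-06). In 129S1/SvImJ the ranges were 1234 to 1396 and 1440.3 to 1699 CPM, also apart (0.28, adjusted p = 0.000964). In C57BL/6J they were 1226 to 1472 and 1298 to 2122 CPM, which overlap (0.34, adjusted p = 8.48e-06).

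The other 4 strains missed the threshold for Fth1 narrowly: A/J (0.21, adjusted p = 0.0501), CAST/EiJ (0.16, adjusted p = 0.0508), WSB/EiJ (0.20, adjusted p = 0.0524) and, in the opposite direction, PWK/PhJ (-0.16, adjusted p = 0.0634). Each became a call without single mice: A/J CD mouse 3 and WD mice 3 and 5, CAST/EiJ CD mice 1, 2 and 4 and WD mouse 6, WSB/EiJ WD mice 3 and 6, or PWK/PhJ CD mouse 6 and WD mouse 4, left out 1 at a time. In PWK/PhJ, CD mice had 1247 to 1428 CPM (median 1369 CPM) and WD mice 1109 to 1342 CPM (median 1219 CPM). The diet effects differed between strains (adjusted p = 8.71e-05), and that of PWK/PhJ differed from the mean of the other 6 (-0.42, SE 0.07, adjusted p = 1.40e-05). On CD no neighbours in the order of Fth1 differed, from PWK/PhJ (1358 ± 66.8 CPM, n = 6) down to DBA/2J (1027 ± 47.0 CPM, n = 6).

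Ftl1 rose in DBA/2J (184 ± 20.8 to 220.5 ± 29.0 CPM, SD, n = 6 and 7; 0.26, limma-voom adjusted p = 0.0433) and in 129S1/SvImJ (180.3 ± 15.2 to 219.6 ± 26.03 CPM, n = 7 and 6; 0.28, limma-voom adjusted p = 0.0175). Leaving out any 1 of 8 DBA/2J mice (CD mice 1, 3, 4, 5 and 6 and WD mice 1, 4 and 6) or 129S1/SvImJ WD mouse 4 ended these calls, at adjusted p-values of up to 0.123 and 0.0821. On CD, Ftl1 was lowest in PWK/PhJ (66.1 ± 10.4 CPM, n = 6), below CAST/EiJ (118 ± 10.1 CPM, n = 7; 1.79-fold, adjusted p = 2.30e-13), which was in turn below A/J (159 ± 13.2 CPM, n = 5; 1.36-fold, adjusted p = 7.90e-05). Genes annotated as its pseudogenes were high in PWK/PhJ alone: Ftl2-ps had 47.4 ± 3.71 CPM (n = 6) there on CD against 0.352 ± 0.0889 CPM (n = 7) in CAST/EiJ. Ftl1-ps2 had 7.20 ± 1.78 CPM in PWK/PhJ and 0.214 ± 0.0674 CPM in CAST/EiJ. Counting can split reads between near-identical copies, so the level of Ftl1 in PWK/PhJ is uncertain in size. Its lowest place on CD and the 1.79-fold step to CAST/EiJ therefore hold for the reads counted on Ftl1 alone. With the means of these copies added to Ftl1, PWK/PhJ does not lie below CAST/EiJ. A difference between strains on CD with the copies summed was not tested. With the copies summed, the diet change in PWK/PhJ was -0.07 (adjusted p = 0.593).

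**Figure D4:**
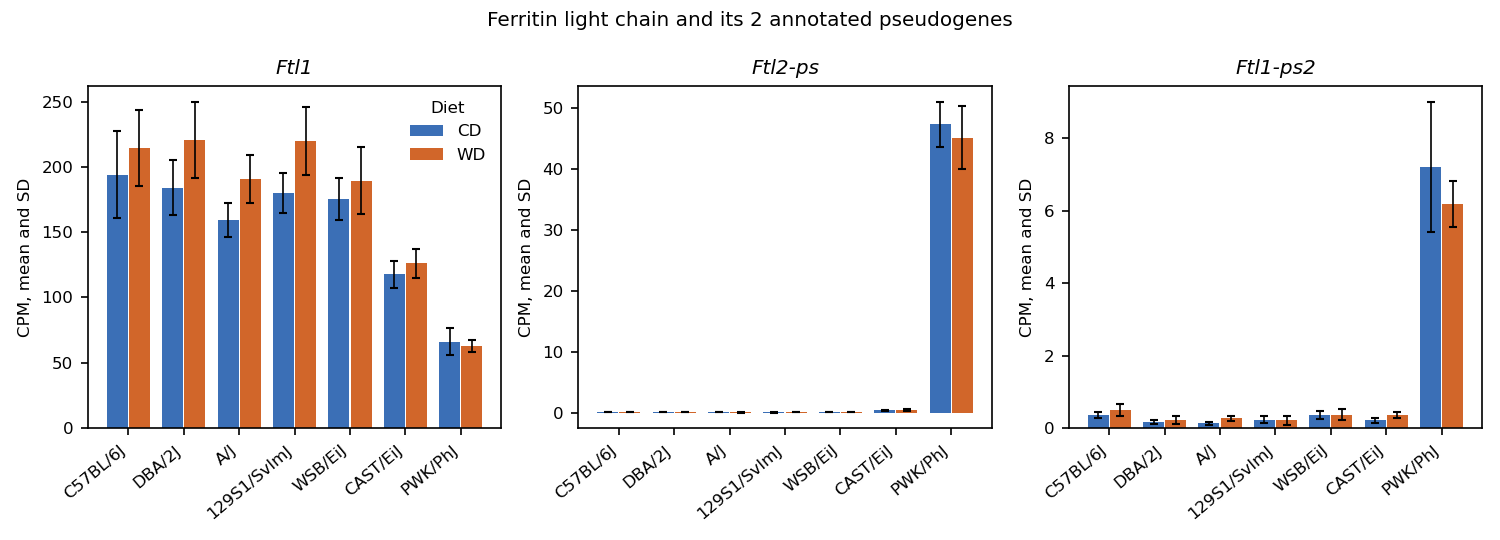
Ftl1 and genes annotated as its pseudogenes in CPM by strain and diet. In PWK/PhJ on CD, reads counted on Ftl1 alone are lowest (mean 66.1 CPM) and those on Ftl2-ps and Ftl1-ps2 are highest (means 47.4 and 7.20 CPM). Counting can split reads between these copies.

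Across individual mice, Hamp was compared with 8 genes that act on hepcidin or respond to the same signals. Each mouse's distance from the mean of its own group in log2 CPM was used, which removes the group means, with permutation tests that were two-sided. Pooled over 93 mice, the relation passed for Smad7, a SMAD target that restrains the pathway (Pearson r = 0.41, permutation p = 5.90e-04, over the 8 relations adjusted 0.00472; Spearman rho = 0.27, adjusted 0.0396, from p = 0.0148). It passed also for Hamp2 (r = 0.39, permutation p = 0.00141, adjusted 0.00564; rho = 0.33, adjusted 0.0304, from p = 0.00380) and for Id1, another SMAD target (r = 0.34, permutation p = 0.00463, adjusted 0.0123; rho = 0.28, adjusted 0.0396, from p = 0.0146). Without the 2 mice farthest from the median, r was 0.35 for Smad7, 0.26 for Hamp2 and 0.27 for Id1.

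The 3 relations were uneven across strains; differences between strains in r were not tested. Within strains, given as a description over 11 to 16 mice each, r between Hamp and Smad7 was 0.79 in C57BL/6J and 0.59 in CAST/EiJ, -0.58 in DBA/2J, and between -0.01 and 0.23 in the other 4 strains. For Id1 it was 0.63 in C57BL/6J and 0.47 in CAST/EiJ, and between -0.29 and 0.18 in the other 5. For Hamp2 it was 0.96 for CAST/EiJ, 0.86 for DBA/2J and 0.74 for PWK/PhJ, but -0.05 in C57BL/6J and between 0.07 and 0.28 in the other 3. In CAST/EiJ, Hamp2 had 21 to 294 reads per mouse on CD. Its share of the pair there was 2.88% ± 0.537 (SD) on CD and 2.86% ± 0.577 on WD. All reads were mapped to the C57BL/6J genome, and the part of reads counted on the wrong copy in this relation was not tested. In an alternative chosen after seeing the data, each strain was left out in turn. Without C57BL/6J neither Smad7 (r = 0.17, permutation p adjusted 0.350) nor Id1 (r = 0.12, permutation p adjusted 0.350) passed, while r for Hamp2 was 0.64. Without CAST/EiJ neither Hamp2 (r = 0.17, permutation p adjusted 0.317) nor Id1 (r = 0.33, permutation p adjusted 0.0937) passed, and Smad7 did (r = 0.37, permutation p adjusted 0.0449). By Pearson r, the pooled call for Smad7 was thus lost without C57BL/6J, that for Hamp2 without CAST/EiJ and that for Id1 without either. By Spearman rho, Smad7 also failed without CAST/EiJ (rho = 0.22, permutation p adjusted 0.360). Hamp2 by rho also failed without PWK/PhJ (permutation p adjusted 0.0610) or DBA/2J (adjusted 0.0517), and Id1 without 129S1/SvImJ (adjusted 0.0507).

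The other 5 relations did not pass the permutation test. The values were r = 0.25 (permutation p = 0.0562, adjusted 0.112; rho = 0.19, adjusted 0.204) for Socs3, a STAT3 target, and r = 0.16 (permutation p = 0.204, adjusted 0.326; rho = 0.12, adjusted 0.405) for Bmp6. They were r = 0.12 (permutation p = 0.278, adjusted 0.371; rho = 0.10, adjusted 0.405) for Saa1, r = 0.05 (permutation p = 0.718, adjusted 0.718; rho = 0.11, adjusted 0.405) for Tfr2 and r = -0.06 (permutation p = 0.613, adjusted 0.701; rho = -0.04, adjusted 0.752) for Tfrc. With distances taken from the means of group and cohort together, r was 0.50 for Smad7 (permutation p adjusted 0.0036) and 0.37 for Id1 (adjusted 0.00908), and Hamp2 no longer passed (r = 0.30, adjusted 0.134).

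**Figure D5:**
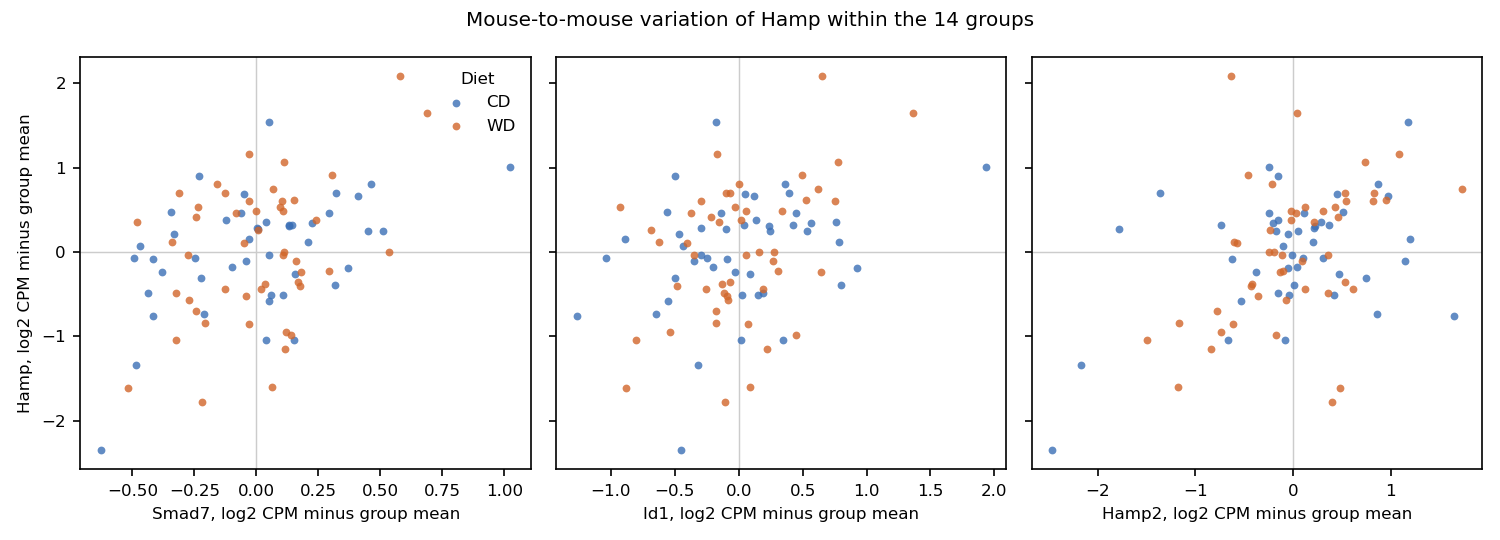
Hamp against Smad7, Id1 and Hamp2 in 93 mice, each as log2 CPM minus the mean of the mouse's group. The pooled r is 0.41, 0.34 and 0.39, with wide scatter; without C57BL/6J it is 0.17 for Smad7 and 0.12 for Id1, and without CAST/EiJ 0.17 for Hamp2. The part of reads counted on the wrong copy of Hamp and Hamp2 was not tested.

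Over the 14 group means of log2 CPM, the 3 genes most like each of 5 members were Actl6a, Gm14964 and Zfp948 for Hamp (r from 0.88 to 0.94), Gm44744, Plpp6 and Pnpla3 for Hamp2 (0.92 to 0.95), and Lta, Eif4g3 and Cog6 for Tfrc (0.82 to 0.83). They were As3mt, Cramp1l and Mef2d for Bmp6 (0.87 to 0.89) and Polg2, Sntg2 and Nudt16 for Slc40a1 (0.93 to 0.95). These are the highest of 19110 genes over 14 points that share strains, so they describe likeness only.

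The rest of the iron pathway was read from 83 listed genes, of which 81 passed the filter on low counts (Erfe and Ftmt did not). Of the 81, the calls on WD were 14 higher and 9 lower for C57BL/6J, 11 higher and 11 lower for DBA/2J, 7 against 5 for A/J, 16 and 11 in 129S1/SvImJ, 8 and 3 in WSB/EiJ, 6 and 7 in CAST/EiJ, and 16 and 16 in PWK/PhJ. As shares of the 81 these were 28.4% in C57BL/6J (26.2% of all genes), 27.2% for DBA/2J (18.0%), 14.8% of them for A/J (9.03%), 33.3% in 129S1/SvImJ (28.0%), 13.6% in WSB/EiJ (8.94%), 16% in CAST/EiJ (19.5%) and 39.5% in PWK/PhJ (29.6%). The pathway's totals were thus read against the share of all genes, and a total near it is no result about the pathway. Single mice moved 4 totals by more than 1.5 times: 12 became 7 without A/J CD mouse 1, 22 became 13 without DBA/2J CD mouse 1, 11 became 7 without WSB/EiJ CD mouse 4, and 13 became 21 without CAST/EiJ CD mouse 4. The median log2 change of the 81 lay between -0.05 in A/J and 0.03 in PWK/PhJ.

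In BMP-SMAD signalling (17 genes tested) the calls were 3 lower in C57BL/6J, 6 lower in DBA/2J, 1 lower in A/J, 1 higher and 6 lower in 129S1/SvImJ, 2 lower in WSB/EiJ, 1 higher and 3 lower in CAST/EiJ, and 3 higher and 4 lower in PWK/PhJ, with medians from -0.19 in 129S1/SvImJ to -0.04 in PWK/PhJ. The share called was below that of all genes in C57BL/6J (17.6% against 26.2%) and A/J (5.88% against 9.03%). It was above in DBA/2J (35.3% against 18.0%), 129S1/SvImJ (41.2% against 28.0%), WSB/EiJ (11.8% against 8.94%), CAST/EiJ (23.5% against 19.5%) and PWK/PhJ (41.2% against 29.6%). The gap in A/J, WSB/EiJ and CAST/EiJ was less than 1 gene, which makes 5.88% of this list, so those counts are no result about it. Smad9, a receptor-activated SMAD, fell by 2.07 on the log2 scale in DBA/2J (12.7 ± 3.43 to 3.17 ± 1.41 CPM, n = 6 and 7, limma-voom adjusted p = 9.42e-06), and was called lower in C57BL/6J, 129S1/SvImJ and WSB/EiJ too. These are the strains in which Bmp6 was called. Bmp2, the other endothelial ligand that acts on hepcidin, fell by 0.53 in DBA/2J (24.1 ± 2.88 to 16.8 ± 2.34 CPM, adjusted p = 0.000379) and was called lower in every strain but A/J and CAST/EiJ. Fgl1, a protein that hepatocytes secrete, fell by 1.45 in CAST/EiJ (407 ± 185 to 146 ± 41.6 CPM, n = 7 and 8, limma-voom adjusted p = 0.00974) and was called in no other strain.

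Among 7 target genes of that signal none was called higher. Lower calls were Id1 and Bambi in C57BL/6J, Id3, Smad7 and Bambi in DBA/2J and Id2 in A/J, named here after their values were seen. Id1 in C57BL/6J went from 16.0 ± 14.0 to 7.52 ± 4.55 CPM (n = 8 and 8; -0.99, limma-voom adjusted p = 0.00106). None of the 7 was called in 129S1/SvImJ or PWK/PhJ, where Hamp was called lower, or in WSB/EiJ or CAST/EiJ, against 28.0%, 29.6%, 8.94% and 19.5% of all genes. The 2, 3 and 1 called were 28.6% of the 7 in C57BL/6J (26.2% of all genes), 42.9% for DBA/2J (18.0%) and, with 1 call, 14.3% in A/J (9.03%); 1 gene makes 14.3% of this list. The median change of the 7 was -0.35 in C57BL/6J, -0.53 in DBA/2J, -0.37 in A/J, -0.09 in 129S1/SvImJ, -0.19 in WSB/EiJ, -0.02 in CAST/EiJ and 0.07 in PWK/PhJ.

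The list of the IL6-STAT3 axis, through which inflammation raises hepcidin, had 12 genes. In the 4 strains where Hamp was called lower, 5 were higher in C57BL/6J, 3 in DBA/2J, 3 higher and 1 lower in 129S1/SvImJ, and 4 higher and 3 lower in PWK/PhJ. A/J had 1 higher and 2 lower, WSB/EiJ 1 higher, and CAST/EiJ none. The share of the 12 called ran from 0% in CAST/EiJ and 8.33% in WSB/EiJ, below all genes (19.5% and 8.94%), through 25% for DBA/2J (18.0%), 25% for A/J (9.03%) and 33.3% in 129S1/SvImJ (28.0%) to 41.7% in C57BL/6J (26.2%) and 58.3% in PWK/PhJ (29.6%). In this list 1 gene makes 8.33%, and the gap in WSB/EiJ, DBA/2J and 129S1/SvImJ was less than that. Those counts are therefore no result about the list. Saa1 and Saa2, serum amyloids of the acute phase, were called higher in the 4 strains where Hamp was called lower and in no other. Saa1 in C57BL/6J went from 18.2 ± 9.23 to 159 ± 67.5 CPM (3.12, limma-voom adjusted p = 0.000209) and Saa2 from 7.80 ± 3.48 to 91.9 ± 37.3 CPM (3.52, limma-voom adjusted p = 0.000237; n = 8 and 8 for both). Lcn2, which binds bacterial siderophores, rose by 4.71 in PWK/PhJ (9.96 ± 3.79 to 282 ± 155 CPM, n = 6 and 7, limma-voom adjusted p = 1.99e-10) and was called higher in every strain but CAST/EiJ. The lower calls were fibrinogen chains: Fgb in 129S1/SvImJ and PWK/PhJ, and Fga and Fgg in A/J and PWK/PhJ. Macrophage markers moved with the serum amyloids in 3 of these strains, all 7 higher, while in DBA/2J 0 of 7 was called and the sum went from 97.7 to 84.3 CPM. Their part in these changes was not tested.

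Of 16 iron transport genes, the calls were 4 higher and 2 lower in C57BL/6J, 2 higher in DBA/2J, 3 higher and 1 lower in A/J, 6 and 1 in 129S1/SvImJ, 3 higher in WSB/EiJ, 1 higher and 2 lower in CAST/EiJ, and 7 and 3 in PWK/PhJ. The share called was below that of all genes in DBA/2J (12.5% against 18.0%) and CAST/EiJ (18.8% against 19.5%), and above it in the other 5 strains, by most in PWK/PhJ (62.5% against 29.6%). Steap3, an endosomal ferrireductase, rose by 1.12 in WSB/EiJ (20.3 ± 2.26 to 44.2 ± 5.02 CPM, n = 6 and 6, limma-voom adjusted p = 2.55e-17) and was called higher in every strain but C57BL/6J. Steap4, a metalloreductase, rose by 1.04 in 129S1/SvImJ (159.5 ± 23.1 to 342 ± 121 CPM, n = 7 and 6, limma-voom adjusted p = 0.00188), and in C57BL/6J and PWK/PhJ. Scara5, a ferritin receptor, rose by 1.41 in 129S1/SvImJ (11.9 ± 4.72 to 30.3 ± 9.81 CPM, adjusted p = 0.0111) and in WSB/EiJ.

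Iron sensing and ferritin handling (8 genes tested) had 1 higher call, Aco1 in DBA/2J, and lower calls of 1 gene in DBA/2J, 2 in 129S1/SvImJ, 1 in WSB/EiJ, 2 in CAST/EiJ and 2 in PWK/PhJ. C57BL/6J and A/J had none. The share called was at most 25% in any strain, where 1 gene makes 12.5% of the list, and stood below or within 1 gene of that of all genes (18.0% in DBA/2J, 28.0% in 129S1/SvImJ, 8.94% in WSB/EiJ, 19.5% in CAST/EiJ and 29.6% in PWK/PhJ), so the counts are no result about this list. Pcbp2, an iron chaperone that hands iron to ferritin, fell by 0.43 in PWK/PhJ (75.8 ± 6.57 to 56.1 ± 3.37 CPM, n = 6 and 7, limma-voom adjusted p = 1.73e-09) and was called lower in 5 strains in all. Its relative Pcbp1 fell by 0.19 in 129S1/SvImJ (175 ± 6.58 to 153 ± 8.81 CPM, n = 7 and 6, limma-voom adjusted p = 0.00959).

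Haem handling (21 genes) gave 5 higher and 2 lower for C57BL/6J, 5 higher and 1 lower for DBA/2J, 3 against 0 for A/J, 6 and 1 in 129S1/SvImJ, 4 and 0 in WSB/EiJ, 4 and 0 in CAST/EiJ, and 2 and 4 in PWK/PhJ. The share called was just below that of all genes in CAST/EiJ (19% against 19.5%) and PWK/PhJ (28.6% against 29.6%), and above it in the other 5 strains, by least in A/J and 129S1/SvImJ (14.3% against 9.03%, and 33.3% against 28.0%) and by most in DBA/2J (28.6% against 18.0%). Abcg2, an exporter of porphyrins, rose by 1.25 in WSB/EiJ (74.8 ± 17.3 to 178 ± 42.5 CPM, n = 6 and 6, limma-voom adjusted p = 9.72e-13) and was called higher in all 7 strains. Alas1, the enzyme of the first step of haem synthesis, rose by 1.93 in A/J (124 ± 43.0 to 502 ± 271 CPM, n = 5 and 6, limma-voom adjusted p = 0.00788) and was called in no other strain. Hmox1, which degrades haem and frees its iron, rose by 0.90 in 129S1/SvImJ (17.9 ± 2.67 to 33.3 ± 5.60 CPM, n = 7 and 6, limma-voom adjusted p = 0.000243), and in C57BL/6J and PWK/PhJ. Kupffer cell markers moved with it in 129S1/SvImJ, 3 of 6 higher and their sum going from 175 to 249 CPM, and macrophage markers did in all 3 strains; their part was not tested. Of the 6 erythroid markers, 1 was higher in every strain but WSB/EiJ, where 1 was at 0 on CD. That 1 call makes 16.7% of the list, below the share of all genes except in A/J (9.03%), so it is no result about the list. The sum of the 6 fell in CAST/EiJ (39.4 to 25.3 CPM) and rose in every other strain. Of the 5 stellate cell markers, 1 was called higher and 1 lower in PWK/PhJ, 40% against 29.6% of all genes. There 1 gene makes 20% of the list. At most 1 stellate cell marker was called in any other strain.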

How the data were processed

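Liver RNA of 93 mice was sequenced on BGISEQ-500 libraries. The authors mapped reads with STAR 2.7.1a (named in the submitters' processing notes) to GRCm38, the C57BL/6J genome, and deposited 1 table of raw read counts per gene with no normalization. The annotation release and the strand setting are not given in the sources used here. Table rows that name no gene (unmapped, multimapping, no feature and ambiguous reads) stayed out of library sizes and tests: 1.66 to 14.8% of a mouse's reads were unmapped, 8.03 to 12.2% mapped to several places, 3.82 to 5.54% fell on no feature and 3.69 to 5.67% were ambiguous. RIN, the RNA integrity number, was 7 to 9.7.

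Groups were strain by diet, from the labels; replicate numbers only name mice. TMM factors (edgeR 4.0.16) and limma-voom (limma 3.58.1, R 4.3.3) were fitted once over 14 groups after filterByExpr (minimum count 10), which left 19110 of 53465 genes. Benjamini–Hochberg adjustment ran over all genes tested, separately by strain for diet effects, once for the F tests, and over genes and pairs for the 21 strain pairs, with a threshold of 0.05. Whether mice of a group shared a cage or a litter is not in the labels. The limma-voom p-values set differences in means against the spread between mice, which were taken as independent. They may be too small where mice shared a cage or a litter. Correlations used log2 CPM with a prior count of 2 and 100000 permutations within groups. Named pathway genes were, per list, up to 3 genes with the largest change over the 7 strains among calls whose diets did not overlap; genes most like a member were the 3 highest Pearson r over group means. The members and lists were chosen with earlier results of these data known. Scripts were tested on simulated data. Alternatives were edgeR's quasi-likelihood test, DESeq2 1.42.0, RLE and upper-quartile factors, every gene with any count, cohort or RIN as a covariate, sample quality weights, close copies summed, a prior count of 0.5, and leaving out each mouse, with each strain left out of the correlations added after seeing the data. Promoter windows came from RefSeq and transcripts from GENCODE M21; 8 members matched a window, and Trf and Slc40a1 had none in the table. At 40020424 reads or more on genes per mouse, reads per member were fewest for Hamp2 in WSB/EiJ (1 to 17) and CAST/EiJ (21 to 294), where counting error is largest.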

Additional observations from a re-analysis of the deposited data

Results flagged for a closer look

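In 6 of 140 groups of mice (10 members in 14 groups) the highest mouse stood far from the others by Dixon's test at the 95% level, about as many as the 1 in 20 that chance flags. For Ftl1 these were 129S1/SvImJ CD mouse 6 at 212.3 CPM (the next at 180.7 CPM), C57BL/6J WD mouse 2 at 275.6 CPM (next 217.9 CPM) and DBA/2J CD mouse 2 at 225.5 CPM (next 181.0 CPM). For Hamp2 they were DBA/2J WD mouse 5 at 75.0 CPM (next 49.1 CPM) and WSB/EiJ WD mouse 5 at 0.299 CPM (next 0.0513 CPM). For Tfr2 it was WSB/EiJ WD mouse 4 at 634.6 CPM (next 485.8 CPM).

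Diet effects that differed between the 7 strains by the limma-voom F test were those on Hfe (adjusted p = 3.78e-05), Fth1 (adjusted p = 8.71e-05) and Bmp6 (adjusted p = 0.0479). Set against the average effect over the other 6 strains, that in PWK/PhJ was -0.40 on the log2 scale for Hfe and -0.42 for Fth1.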

How the results depend on the processing

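Of 813 single values under the alternatives, 757 kept their direction and their side of the threshold, 17 lost a call, 27 gained one and 12 changed direction; sample quality weights gave 11 of the gains. The cause of these changes was not tested. Members called in A/J rose from 0 to 1 with close copies summed, DESeq2, RIN, RLE or upper-quartile factors and to 4 with weights (0 to 1 leaving out a mouse), and in CAST/EiJ from 0 to 2 with DESeq2, edgeR or weights and 1 with upper-quartile factors (0 to 3 leaving out a mouse). In WSB/EiJ 2 became 4 with DESeq2, and in DBA/2J, with 7 in the full fit, 4 to 6 were called leaving out a mouse. Members whose diet effect differs went from 3 to 6 with weights. Pathway genes called went from 27 to 43 in 129S1/SvImJ with weights, from 12 to 6 in A/J with every gene of any count and 26 with weights (7 to 12 leaving out a mouse), and from 11 to 6 and 20 in WSB/EiJ (7 to 15 leaving out a mouse), while leaving out a mouse gave 13 to 21 in DBA/2J and 10 to 21 in CAST/EiJ. Genes whose correlation with Hamp passed went from 3 to 1 without C57BL/6J and to 1 without CAST/EiJ, an alternative chosen after seeing the data. The DBA/2J call on Hamp was lost with every gene of any count (adjusted p = 0.207). Values that changed sign were all without a call: Hamp against Tfr2 (r from 0.046 to -0.0054 without CAST/EiJ and -0.035 without PWK/PhJ), Hamp against Tfrc (r from -0.060 to 0.016 without 129S1/SvImJ), Tfrc in C57BL/6J (-0.0085 to 0.0045 with cohort, 0.011 with DESeq2, 0.0039 with RLE, 0.040 with weights, -0.081 to 0.075 leaving out a mouse), Tfr2 in C57BL/6J (-0.036 to 0.034 with cohort, -0.13 to 0.026 leaving out a mouse), Tfr2 in DBA/2J (-0.0054 to 0.00057 with RLE, 0.0053 with weights, 0.0073 with upper-quartile factors, -0.042 to 0.021 leaving out a mouse) and Trf in PWK/PhJ (-0.095 to 0.0016 with weights). Leaving out a mouse alone did so for Ftl1 in PWK/PhJ (-0.13 to 0.00042), Hamp in A/J (-0.29 to 0.037), Hamp2 in A/J (-0.032 to 0.46), Tfr2 in WSB/EiJ (-0.020 to 0.10), Trf in DBA/2J (-0.0037 to 0.13) and Trf in WSB/EiJ (-0.019 to 0.18). No paired analysis was possible because replicate numbers were given in accession order and pair no mice. With at most 17 reads per mouse, a diet effect on Hamp2 in WSB/EiJ is limited by depth.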
